A study of Homo sapiens with 6 samples.

Results

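The protein-coding genes of human chromosome 19 whose symbol is ZNF followed by a number were followed in the human glioblastoma cell line LN-229 after treatment with sh-JMJD1C. The rule (ZNF, digits and at most 1 letter, on chromosome 19 of hg38) found 247 genes among the 58174 in the deposited tables. It also gave 2 sets for comparison, 262 numbered ZNF genes on other chromosomes and 1219 other protein-coding genes of chromosome 19. The sets go by symbol alone, so that zinc finger genes with other kinds of symbol count among the other protein-coding genes. Nuclear-enriched, ribosome-depleted RNA of sh-JMJD1C cells (3 libraries) was set against that of control-NC cells (3 libraries). All libraries came from the same line, and the labels give no time point, hairpin sequence or culture number, so that the p-values measure the spread between libraries, which may be technical.

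Most numbered zinc finger genes of chromosome 19 belong to a family that grew by tandem duplication and lies in clusters of related copies. Their proteins bind DNA through arrays of zinc fingers, many of them at retrotransposons, and most carry a KRAB domain that brings in TRIM28. TRIM28 in turn recruits the histone H3 lysine 9 methyltransferase SETDB1, HP1 proteins and the NuRD complex, and the same repressive mark covers the bodies and last exons of many ZNF genes. JMJD1C belongs to the KDM3 family, whose members are known for removing methyl groups from that lysine. A KRAB A-box was found in the coding sequence of 197 of the 247 genes (79.8%), against 99 of the 262 numbered ZNF genes elsewhere, and the zinc finger pattern occurred a median of 12 times per gene, with 36 copies at most, in ZNF208.

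A short promoter motif, which the choice of genes did not use, was more frequent among these genes than among others. The 7 letters CCGGAAG, the core of sites for ETS transcription factors, were searched on both strands of RefSeq promoter windows (GRCh38.p14) that ran from 250 bases before to 50 bases after a start. They stood in 109 of 268 windows of the zinc finger genes (40.7%, 216 genes matched by symbol) and in 59 of 124 windows of the genes tested below (47.6%). The share was 28.7% in numbered ZNF genes elsewhere, 12.3% in other protein-coding genes and 10.3% in all 35116 windows. Windows of 5 of the 6 genes that passed the test are shown 5′ to 3′ on the strand of the gene, with the match in capitals (CTTCCGG is the same motif on the other strand). Of the 6 genes, ZNF507 and ZNF146 have no match, and the ZNF507 window is shown beside those with one. ZNF91 lies at chr19:23395422-23395721 (minus strand), ZNF431 at chr19:21141790-21142089 (plus), ZNF548 at chr19:57389604-57389903 (plus), ZNF320 at chr19:52897645-52897944 (minus) and ZNF507 at chr19:32345360-32345659 (plus).
ZNF91 promoter: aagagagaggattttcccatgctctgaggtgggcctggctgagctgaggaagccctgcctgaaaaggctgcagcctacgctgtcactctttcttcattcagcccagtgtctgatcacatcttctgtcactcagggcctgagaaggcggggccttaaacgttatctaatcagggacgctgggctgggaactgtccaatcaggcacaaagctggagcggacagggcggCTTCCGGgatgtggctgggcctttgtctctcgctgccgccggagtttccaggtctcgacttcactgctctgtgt
ZNF431 promoter: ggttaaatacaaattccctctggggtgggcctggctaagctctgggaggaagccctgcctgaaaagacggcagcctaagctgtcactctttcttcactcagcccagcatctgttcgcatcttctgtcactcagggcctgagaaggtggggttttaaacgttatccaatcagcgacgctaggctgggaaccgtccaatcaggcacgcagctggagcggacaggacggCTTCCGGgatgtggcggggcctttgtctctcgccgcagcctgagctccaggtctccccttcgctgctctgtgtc
ZNF548 promoter: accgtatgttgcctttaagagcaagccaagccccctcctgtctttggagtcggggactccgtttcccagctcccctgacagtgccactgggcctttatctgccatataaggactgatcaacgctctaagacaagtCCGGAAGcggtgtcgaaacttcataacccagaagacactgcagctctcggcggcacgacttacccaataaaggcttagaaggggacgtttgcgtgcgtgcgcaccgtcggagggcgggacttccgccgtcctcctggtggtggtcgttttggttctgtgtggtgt
ZNF320 promoter: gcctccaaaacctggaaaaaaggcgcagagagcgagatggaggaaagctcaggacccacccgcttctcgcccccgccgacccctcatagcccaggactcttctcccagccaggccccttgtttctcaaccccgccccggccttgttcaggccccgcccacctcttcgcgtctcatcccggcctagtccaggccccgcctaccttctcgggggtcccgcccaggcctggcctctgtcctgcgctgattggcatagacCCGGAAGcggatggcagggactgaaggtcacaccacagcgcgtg
ZNF507 promoter: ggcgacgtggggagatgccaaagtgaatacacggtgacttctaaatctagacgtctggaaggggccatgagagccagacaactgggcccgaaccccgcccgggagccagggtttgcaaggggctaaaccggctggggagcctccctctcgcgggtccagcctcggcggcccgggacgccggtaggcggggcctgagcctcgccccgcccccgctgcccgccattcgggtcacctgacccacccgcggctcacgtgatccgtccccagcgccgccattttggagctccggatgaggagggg
The ZNF91 and ZNF431 windows, of genes in the same cluster, had the same base at 83.5% of alignment positions, gaps included, and the other pairs among the 6 genes (for ZNF320, 1 of its 2 windows) at 46.3% to 54%. Both carried the motif shortly before the annotated start. Among tested genes the median log2 fold change was -0.79 for the 54 with a match and -0.67 for the 43 without one. Their median GC content was 42.9% with a match and 44.6% without, and its part in this gap was not tested. A match is a string of letters and says nothing of whether a factor bound there.

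The libraries held 1676755, 1919675 and 1660561 reads on genes in sh-JMJD1C cells and 544442, 2004255 and 2960454 in control cells, so that a floor of 3 reads stood at 1.56 to 1.81 RPM (reads on a gene per 1000000 reads of its library) in sh-JMJD1C libraries and 1.01 to 5.51 in control libraries. JMJD1C itself had 43.1, 11 and 28.1 scaled RPM (RPM divided by a median-ratio size factor) in sh-JMJD1C libraries, against 168, 93.1 and 171 in control libraries (log2 fold change -2.49, SE 0.49, limma adjusted p = 0.0126). The exact two-sided permutation test gave p = 0.1, the smallest value that 3 against 3 libraries allow, and the limma call was lost without control 1 (adjusted p = 0.075), control 3 (0.052) or sh-JMJD1C 2 (0.065). Of 8 glioblastoma markers, VIM (793 ± 102 in sh-JMJD1C and 715 ± 95.5 scaled RPM in control cells) and CD44 (280 ± 163 and 258 ± 16.6) were high (SD, n = 3 each), NES had 2 to 20 reads per library, and SOX2, GFAP and TNC had 0 to 6. OLIG2 and S100B were at 0 in every library. CDKN2A, which is known as deleted in LN-229, went against the label, with 491, 1117 and 720 reads in sh-JMJD1C libraries and 52, 365 and 237 in control libraries. The 13 markers of other cell types added up to 11.9 to 26.1 scaled RPM in sh-JMJD1C libraries and 27.6 to 51.2 in control libraries, mostly from MBP, and KRT5, CD3E, PECAM1 and ALB were at 0. MALAT1, a nuclear RNA, took 0.292%, 0.0915% and 0.185% of the reads in sh-JMJD1C libraries and 1.73%, 1.25% and 2.4% in control libraries. RN7SL genes took 1.18%, 15.7% and 18.5% in sh-JMJD1C libraries and 0.378%, 0.59% and 1.77% in control libraries, and mitochondrial genes took 12.6%, 1.33% and 1.7% in sh-JMJD1C libraries and 7.04%, 8.7% and 2.93% in control libraries. The part of these differences in the results that follow was not tested, and fewer transcripts per nucleus cannot be told apart from a smaller share of such nuclei.

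The chromosome 19 zinc finger genes were expressed at low levels. No read fell on 47 of the 247 genes (19%) in any library, 95 had 1 to 59 reads over the 6 libraries, and 105 reached the 60 reads set for the test. Other protein-coding genes were at 0 in 24.8% of cases. The median level per kb of longest transcript was 1.19 scaled RPM over the 200 zinc finger genes above 0 and 4.16 over other protein-coding genes above 0. The most read gene, ZNF331, had 688 reads in all. Exons of 137 of the 247 genes overlap those of another gene, and many copies resemble each other in sequence, so that the authors' counting could have split or shared reads between them.

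As a sum, transcripts of the 247 genes were less abundant in sh-JMJD1C cells. The sum was 1268, 1121 and 1103 scaled RPM in sh-JMJD1C libraries, against 1851, 1481 and 2127 in control libraries. The groups did not overlap, and their means were 1164 ± 90.8 in sh-JMJD1C and 1820 ± 324 in control cells (SD, n = 3 each), a ratio of 0.64. Without any size factor the genes took 0.133% (95% exact binomial interval 0.128 to 0.139), 0.0852% (0.0811 to 0.0894) and 0.0945% (0.0899 to 0.0993) of the reads in sh-JMJD1C libraries. The shares were 0.159% (0.149 to 0.17), 0.182% (0.176 to 0.188) and 0.294% (0.288 to 0.3) in control libraries. These intervals cover counting error only. The 142 genes with too few reads for the test had sums of 142.2 ± 10 scaled RPM in sh-JMJD1C and 218.1 ± 58.9 in control cells (SD, n = 3 each), a ratio of 0.652.

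**Figure D1:**
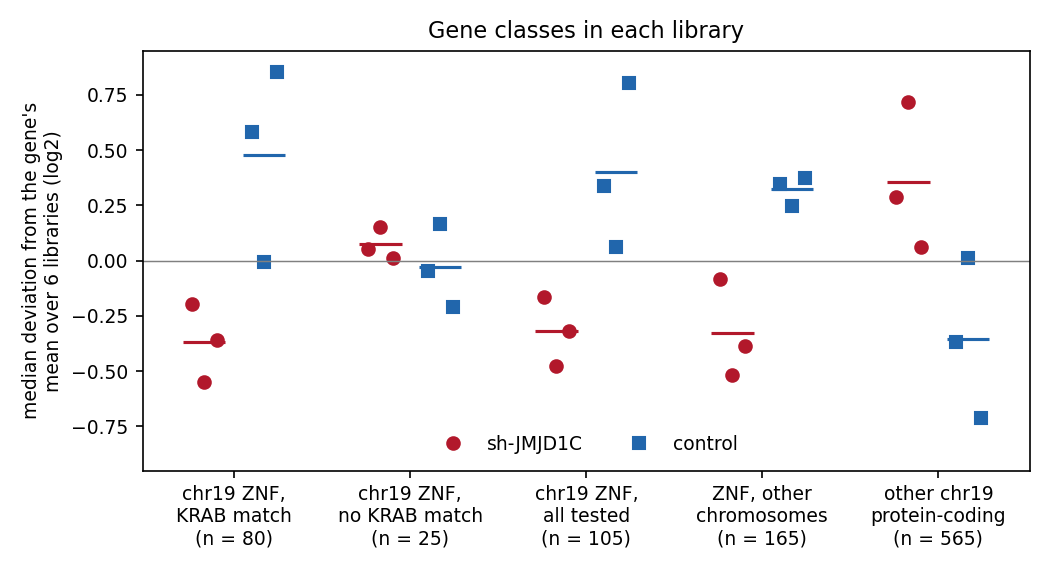
Median over the genes of a class of each gene's deviation from its own mean over the 6 libraries (log2 scaled RPM + 1), 1 point per library, bars at the mean of 3. The tested chromosome 19 zinc finger genes lay at -0.475 to -0.163 in sh-JMJD1C libraries and 0.063 to 0.802 in control libraries. The other chromosome 19 genes that were tested ran the other way without overlap, at 0.064 to 0.72 in sh-JMJD1C libraries and -0.711 to 0.011 in control libraries.

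Gene by gene, 82 of the 105 tested genes (78.1%) had a log2 fold change below 0, and the median was -0.68 with quartiles of -1.2 and -0.15. Over all 11877 genes tested the median was -0.05 and 51.9% lay below 0. The sh-JMJD1C libraries all lay below all control libraries for 31 of the 105 genes (29.5%, against 17.2% of all genes tested) and all above them for 5 (4.76%, against 17.3%). At an adjusted p below 0.05 in limma, 6 genes fell (5.71%), against 4.77% of all genes tested, so that the share of lower calls was near the background. None passed in the higher direction, against 7.31% of all genes tested. At an unadjusted limma p below 0.05, 25 of the 105 genes were lower and 3 higher, against 1819 lower and 2037 higher of all 11877 genes tested. Limma-voom gave 1 lower call (its share over all genes was 1.81%) and 0 higher.

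The median of the chromosome 19 zinc finger genes differed in sign from that of their neighbours on the chromosome and was close to that of their relatives elsewhere. The 565 other protein-coding genes of chromosome 19 that were tested had a median log2 fold change of 0.75, with 104 called higher and 8 lower. Their longest transcripts were shorter and richer in GC, with medians of 2845 bases and 60% GC. For the tested chromosome 19 zinc finger genes these medians were 4513 bases and 43.3%. Fold changes by length and GC content are given below. The 165 numbered ZNF genes of other chromosomes had a median of -0.69, with 1 called higher and 18 lower (10.9%). Library by library, the median deviation of the chromosome 19 zinc finger genes from each gene's mean was -0.163, -0.475 and -0.316 in sh-JMJD1C libraries and 0.338, 0.063 and 0.802 in control libraries. Control 2 was thus the control library nearest to the sh-JMJD1C libraries, and it was the lowest control for 54 of the 105 genes, while control 3 was the highest control for 54.

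The genes called lower lay in 4 of the clusters described below, apart from ZNF507, which lies outside them. ZNF91, a KRAB protein with 32 finger matches known for silencing SVA retrotransposons (chr19:23304991-23395560, minus strand), had 12.5, 6.86 and 9.83 scaled RPM in sh-JMJD1C libraries, against 57.6, 24.4 and 56 in control libraries. Its log2 fold change was -2.07 (SE 0.47, limma adjusted p = 0.0206). Every sh-JMJD1C library had less than the lowest control library, control 2. ZNF431, a KRAB gene of the same cluster (chr19:21142024-21196053, plus), had 7.95, 9.6 and 7.73 scaled RPM in sh-JMJD1C libraries and 53.3, 22.4 and 30.3 in control libraries (log2 fold change -1.86, SE 0.46, limma adjusted p = 0.0264). The sh-JMJD1C libraries lay close together, whereas control 1, the library with the fewest reads, was the highest.

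ZNF146, which encodes a protein made almost wholly of zinc fingers and has no KRAB match (chr19:36214602-36238774, plus), had 17, 6.17 and 21.8 scaled RPM in sh-JMJD1C libraries and 85.3, 22 and 88.9 in control libraries (log2 fold change -1.97, SE 0.59, limma adjusted p = 0.0468). The groups were barely apart, since sh-JMJD1C 3 came just under control 2, and its exons overlap those of ZNF565. ZNF548, a KRAB gene in the last cluster of the long arm (chr19:57389850-57402992, plus), had 10.8, 4.8 and 5.62 scaled RPM in sh-JMJD1C libraries and 38.4, 19.9 and 25.2 in control libraries (log2 fold change -1.86, SE 0.49, limma adjusted p = 0.0328). ZNF320, a KRAB gene (chr19:52863790-52897693, minus) whose exons overlap ZNF468, had 11.9, 6.86 and 7.02 scaled RPM in sh-JMJD1C libraries and 27.7, 26.8 and 27.9 in control libraries (log2 fold change -1.61, SE 0.44, limma adjusted p = 0.0365). Its control libraries were nearly equal. ZNF507, which has no KRAB match and lies in no cluster (chr19:32345594-32387667, plus), had 25, 11 and 16.2 scaled RPM in sh-JMJD1C libraries and 46.9, 41.1 and 60.8 in control libraries (log2 fold change -1.52, SE 0.43, limma adjusted p = 0.0402).

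**Figure D2:**
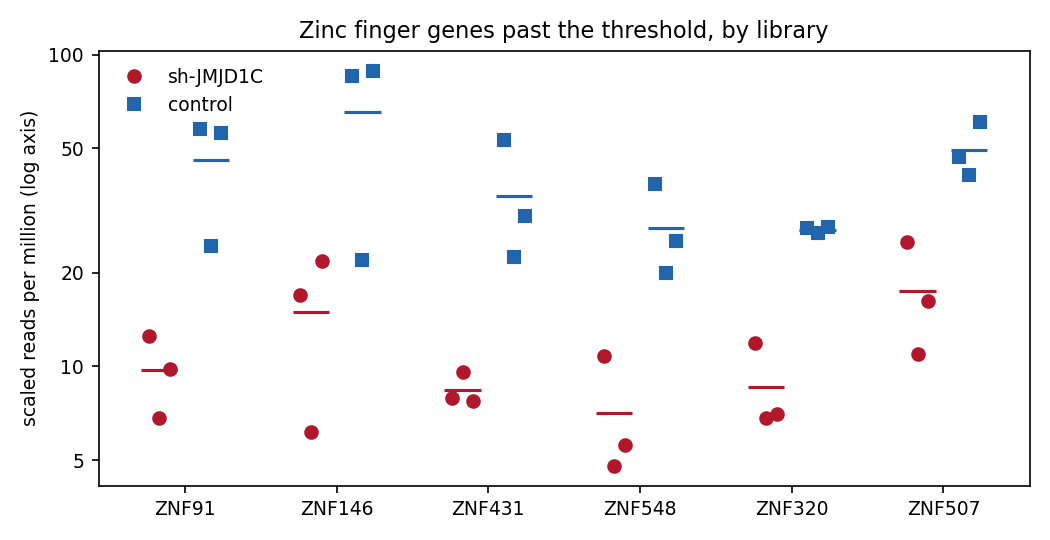
Scaled RPM on a log axis of the 6 zinc finger genes with an adjusted p below 0.05, 1 point per library and bars at the mean of 3. Every sh-JMJD1C library lies below every control library in each gene, and the narrowest gap is that of ZNF146 (21.8 in sh-JMJD1C 3 and 22 in control 2).

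The 6 calls depended on which libraries entered the fit. Each was lost without control 1, without control 3 or without sh-JMJD1C 2, with adjusted p of 0.0749 to 0.21, while the log2 fold changes were -1.21 to -2.02. Those 3 fits called few genes of any kind lower, at 0.0926%, 0.648% and 0.295% of all genes tested. Of the zinc finger genes, 7 were called lower without control 2 (4.98% of all genes tested), 11 without sh-JMJD1C 1 (8.81%) and 3 without sh-JMJD1C 3 (3.32%). The median over the 105 genes ranged from -0.9 to -0.58 over the same fits.

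Of the other zinc finger genes named for a known role, apart from ZNF91, 6 were tested and none passed, with log2 fold changes of -1.27 to -0.49. ZNF331, an imprinted gene, had 50.5, 28.8 and 19.7 scaled RPM in sh-JMJD1C libraries and 57.6, 69.5 and 80.9 in control libraries (log2 fold change -1.14, SE 0.42, limma adjusted p = 0.0893), without overlap between the groups. ZNF611 had 4.54, 3.43 and 3.51 scaled RPM in sh-JMJD1C libraries and 10.7, 7.73 and 14.2 in control libraries (log2 fold change -1.27, adjusted p = 0.134), again without overlap. ZNF274, which binds the last exons of ZNF genes and brings SETDB1 there, had 5.11, 6.17 and 11.9 scaled RPM in sh-JMJD1C libraries and 8.53, 12.2 and 11.5 in control libraries, with overlapping groups (log2 fold change -0.49, adjusted p = 0.537). The groups also overlapped for ZNF808 (log2 fold change -1.2, adjusted p = 0.305), for ZNF224, a partner of WT1 (-1.1, adjusted p = 0.212), and for ZNF675, a partner of TRAF6 (-1.06, adjusted p = 0.267). ZNF350, a partner of BRCA1, had 56 reads in all and ZNF382 had 2, both too few for the test. ZNF93, which binds L1 retrotransposons, and ZNF568 had no read in any library, so that at most 1.01 RPM would be allowed in control 3, the deepest library.

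The 5 genes whose sh-JMJD1C libraries all lay above the control libraries lacked a KRAB match, and none passed the test. ZNF576 had 14.8, 32.9 and 22.5 scaled RPM in sh-JMJD1C libraries and 8.53, 10.6 and 7.82 in control libraries (log2 fold change 1.23, limma adjusted p = 0.093). ZNF575 had 10.2, 27.4 and 20.4 in sh-JMJD1C libraries and 6.4, 8.95 and 7.33 in control libraries (log2 fold change 1.16, adjusted p = 0.131), and ZNF574 had 32.9, 35 and 24.6 in sh-JMJD1C libraries and 14.9, 17.9 and 11 in control libraries (1.04, adjusted p = 0.108). ZNF526 (log2 fold change 0.79, adjusted p = 0.22) and ZNF134 (0.72, adjusted p = 0.357) had smaller differences. ZNF574, ZNF526, ZNF575 and ZNF576 lie in this order on the long arm, between positions 42068477 and 43601157, and their transcripts are rich in GC, at 60.9%, 57.8%, 60.7% and 51.6%. Exons of ZNF576 overlap SRRM5 and those of ZNF575 overlap ETHE1. At the most abundant zinc finger gene per kb, ZNF787, the groups overlapped, at 61.9, 67.2 and 26.7 scaled RPM in sh-JMJD1C libraries and 38.4, 57.7 and 15.4 in control libraries (log2 fold change 0.55). They overlapped as well at ZNF581 (0.44) and ZNF580 (-0.82), which share exons with each other and with CCDC106.

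Genes with and without a KRAB match differed in their medians. The 80 tested genes with a match had a median log2 fold change of -0.83, and 87.5% of them lay below 0, while the 25 without one had a median of 0.14, with 48% below 0. Lower calls numbered 4 among the genes with a match (5%) and 2 among those without (8%), against 4.77% of all genes tested. These are too few calls to compare the kinds. The sh-JMJD1C libraries all lay below all control libraries for 26 genes with a match (32.5%) and all above them for 0. Without a match, 5 (20%) lay below and 5 (20%) above, against 17.2% and 17.3% of all genes tested. Summed over all genes of each kind, those with a match had 732.4 ± 77.4 scaled RPM in sh-JMJD1C and 1331 ± 316 in control cells (ratio 0.55), and those without one had 431.5 ± 52.7 in sh-JMJD1C and 488.8 ± 16.1 in control cells (ratio 0.883; SD, n = 3 each). The kinds also differed in base composition, with a median GC content of 42.7% in tested genes with a match and 57.8% in those without. With the trends over transcript length and GC removed, the medians were -0.24 with a match and -0.1 without. The number of fingers was related less closely to the fold change: the median log2 fold change was -0.5 below 10 fingers (34 genes), -0.81 at 10 to 14 (39 genes) and -0.88 from 15 on (32 genes). In numbered ZNF genes of other chromosomes, the median was -1.06 for the 57 tested with a KRAB match, 80.7% of them below 0. It was -0.53 for the 108 without one, 70.4% of them below 0. Lower calls there were 12 with a match (21.1%) and 6 without (5.56%).

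Fold changes moved with transcript length and GC content in the zinc finger genes and in other protein-coding genes. Across the 105 genes, which are not independent replicates and share the 6 libraries, Spearman's rho of the log2 fold change was 0.62 with GC content and -0.34 with the length of the longest transcript, and across 9941 other protein-coding genes it was 0.55 and -0.48. At lengths of 4000 to 6000 bases, the commonest class, the median was -0.76 for 51 zinc finger genes and -0.27 for other protein-coding genes. It was -0.29 (27 genes) and 0.21 at 2000 to 4000 bases and -1 (22 genes) and -0.7 from 6000 bases on. Below 2000 bases it was 0.55 (5 genes) and 0.95. The zinc finger genes thus had the lower median in each length class, and both medians fell as length rose. By GC content the zinc finger genes had medians of -1.06 below 40%, -0.95 at 40 to 45%, -0.45 at 45 to 50% and 0.44 from 50% on, against -0.92, -0.56, -0.09 and 0.54 for other protein-coding genes. By length and GC content at once, 10 classes held 5 or more tested zinc finger genes, and their median was below that of other protein-coding genes in all 10. At 4000 to 6000 bases it was -0.92 for 15 zinc finger genes and -0.87 for other genes below 40% GC, -0.9 for 22 and -0.63 at 40 to 45%, -0.3 for 8 and -0.24 at 45 to 50%, and -0.25 for 6 and 0.26 from 50% on. At 2000 to 4000 bases it was -1.11 for 7 and -0.39 at 40 to 45%, -0.43 for 9 and 0.09 at 45 to 50%, and 0.46 for 10 and 0.62 from 50% on. From 6000 bases on it was -1.52 for 7 and -1.15 below 40%, and -0.94 for 13 and -0.88 at 40 to 45%. Below 2000 bases it was 0.55 for 5 and 1.29 from 50% GC on. The gap thus varied between classes, and several of them rest on few zinc finger genes.

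**Figure D3:**
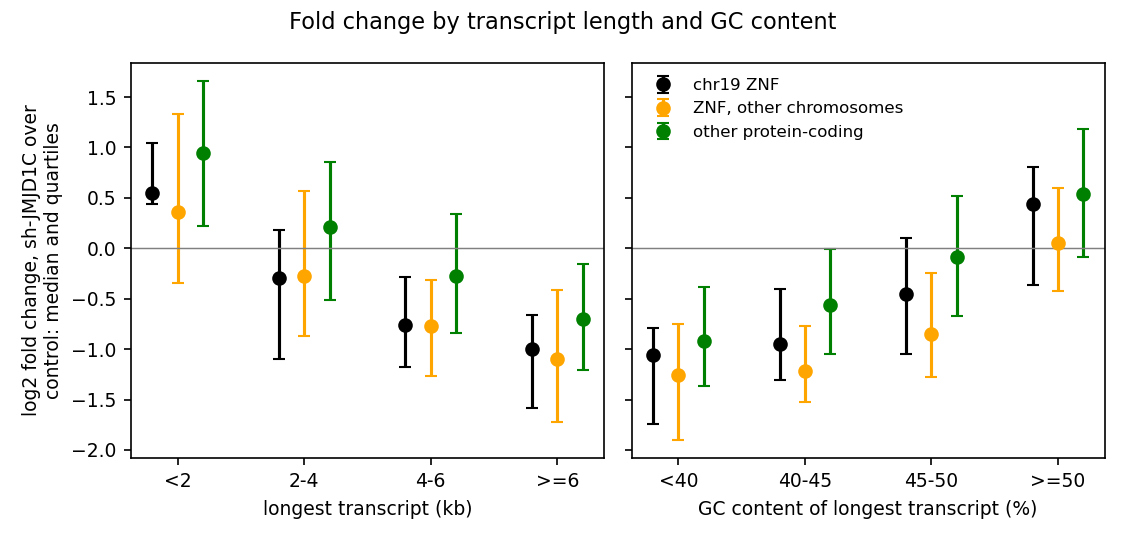
Median log2 fold change (sh-JMJD1C over control), with lines from the lower to the upper quartile over genes, by length of the longest transcript (left) and by its GC content (right). At 40 to 45% GC the medians are -0.95 for chromosome 19 zinc finger genes, -1.22 for those of other chromosomes and -0.56 for other protein-coding genes.

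When the trend over length was removed from each library, the median of the 105 genes was -0.44 and 1 gene, ZNF91, was called lower (log2 fold change -1.67, limma adjusted p = 0.0395), against 2.49% of all genes. When length and then GC were removed, the median was -0.2 and 59% of the genes lay below 0. By limma 0 of the 105 genes were then called in either direction, against 3.28% of all genes called lower. At an unadjusted limma p below 0.05, 12 of them were lower and 4 higher, against 1548 lower and 1754 higher of all 11877 genes tested. In the same fit the median was 0.21 for the other chromosome 19 genes and -0.31 for the numbered ZNF genes elsewhere. These trends come from the same 6 libraries, so that a change shared by long, GC-poor genes would be removed with them.

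Along the chromosome, 236 of the 247 genes fell into 9 clusters (neighbours under 1 Mb apart, at least 5 genes), 4 on the short arm and 5 on the long arm, and 11 lay outside. The median log2 fold change was below 0 in all 9, although 3 clusters had only 1 or 2 tested genes. Among the clusters with 10 or more tested genes it was lowest at 51.6 to 53.6 Mb, with -1.15 over 21 tested genes, 20 of them below 0. Only 2 other protein-coding genes between them were tested, with a median of -0.02. There the summed level was 170, 106 and 144 scaled RPM in sh-JMJD1C libraries and 348, 236 and 445 in control libraries. The cluster at 19.7 to 24.1 Mb, next to the centromere, had a median of -1.06 over 10 tested genes and held ZNF91 and ZNF431. Of its 37 genes, 17 had no read at all, and its sum was 61.3, 58.3 and 97.6 scaled RPM in sh-JMJD1C libraries and 207, 105 and 222 in control libraries. At 36.2 to 37.8 Mb the 10 tested genes had a median of -0.96 and all lay below 0, against -1.7 for the 2 other tested genes between them. The sums of this cluster were 99.9, 83.6 and 99.7 in sh-JMJD1C libraries and 235, 133 and 257 in control libraries. Every sh-JMJD1C sum lay below every control sum in 5 of the 9 clusters, these 3 among them, and all clusters share the 6 libraries. Over all genes tested, taken singly, 17.2% lay lower in this way. The gap was narrow at 11.5 to 12.6 Mb, with 32.9 in sh-JMJD1C 1 and 33.3 in control 2. It was also narrow at 55.5 to 58.5 Mb, with 468 in sh-JMJD1C 1 and 477 in control 3.

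The other clusters with 10 or more tested genes had medians nearer to 0. At 7.1 to 9.8 Mb the median was -0.45 over 10 tested genes, against 0.75 for the 22 other tested protein-coding genes between them. Their median GC content was 43.7% in the zinc finger genes and 61.6% in the other genes. At 43.5 to 45.1 Mb the median log2 fold change was -0.55 over 11 tested genes, against 0.62 for 15 other tested genes between them. The GC medians there were 42.9% and 58.4%. The sums of this cluster overlapped, at 135 ± 26.7 scaled RPM in sh-JMJD1C and 133 ± 28.7 in control cells (SD, n = 3 each). In the largest cluster, at 55.5 to 58.5 Mb, the median was -0.34 over 32 tested genes, against 1.04 for 9 other tested genes between them. Median GC contents were 46.2% and 53.6%. Divided at gaps of 0.5 Mb, this cluster gave a part at 55.5 to 56.7 Mb, where 5 of 16 genes had a KRAB match and the median GC content was 65.9%, with a median of 0.14 over 7 tested genes. The part at 57.2 to 58.5 Mb, with 37 of 43 genes matching and a GC content of 45.8%, had a median of -0.4 over 25 tested genes. With the trends over length and GC removed, the medians of the 9 clusters ranged from -1.59 to 0.33, and 7 were below 0.

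**Figure D4:**
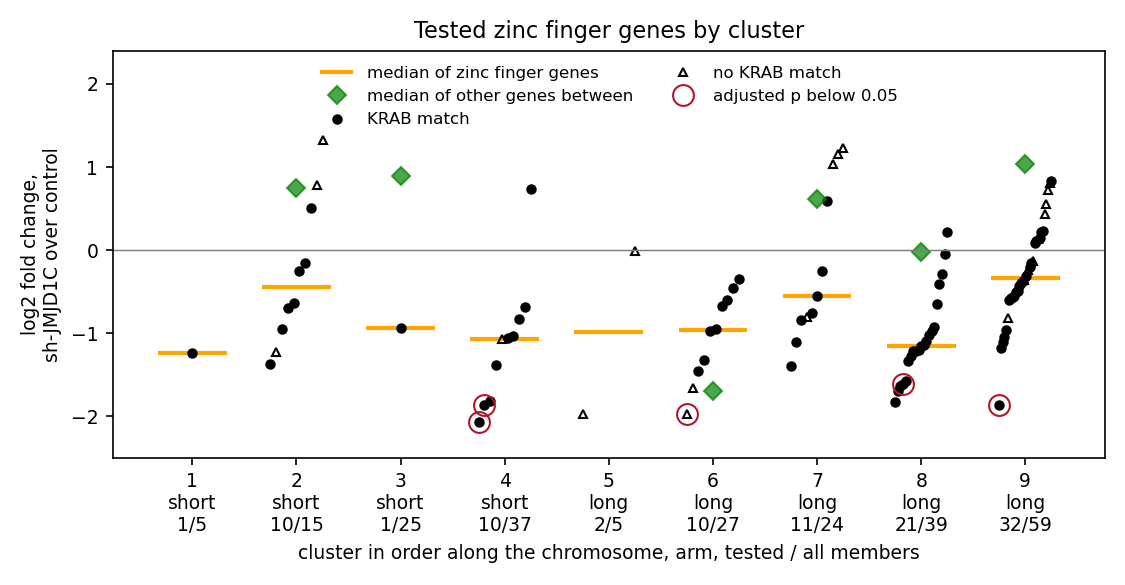
Log2 fold change of each tested zinc finger gene in the 9 clusters in order along chromosome 19, with the median of each cluster as a line. A diamond marks the median of the other protein-coding genes within a cluster that were tested. The medians of the zinc finger genes lie between -1.24 and -0.34, and the genes above 1 have no KRAB match.

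All 27 genes of the machinery through which KRAB zinc finger proteins act were tested, with a median log2 fold change of -0.18. Of these, 1 was called higher (3.7%, against 7.31% of all genes tested) and 2 lower (7.41%, against 4.77%). HDAC1, a deacetylase of the NuRD complex, rose (log2 fold change 1.42, limma adjusted p = 0.0402). MPHOSPH8, a HUSH subunit that reads methylated H3 lysine 9 (-1.74, adjusted p = 0.0296), and ATRX, a remodeller found at the last exons of ZNF genes (-2.18, adjusted p = 0.0264), fell. Each of these 3 calls was lost without control 1, control 3 or sh-JMJD1C 2, in the fits that called few genes of any kind. TRIM28, itself on chromosome 19, had 322, 420 and 223 scaled RPM in sh-JMJD1C libraries and 70.4, 168 and 136 in control libraries, without overlap (log2 fold change 1.4, adjusted p = 0.0508), whereas SETDB1 had 89.1, 56.2 and 68.1 in sh-JMJD1C libraries and 51.2, 70.3 and 69.6 in control libraries (0.15, adjusted p = 0.809).

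The 5 of 9941 other tested protein-coding genes whose levels most resembled the mean standardised level of the 105 zinc finger genes over the 6 libraries were YOD1 and RNF103 (Pearson's r of 0.996 for both), TMEM254 and DDX17 (0.992 for both) and AKAP5 (0.991). None lies on chromosome 19. Like that mean they were lowest in sh-JMJD1C 2 and highest in control 3, which follows from how they were chosen. Of the 105 zinc finger genes, 43 had sh-JMJD1C 2 as their lowest sh-JMJD1C library and 54 had control 3 as their highest control. DDX17, an RNA helicase, had 298, 237 and 258 scaled RPM in sh-JMJD1C libraries and 369, 344 and 454 in control libraries.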

How the data were processed

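RNA of 6 libraries of LN-229 cells was analysed, 3 treated with sh-JMJD1C and 3 with control-NC, grouped by their titles. The submitters' processing notes name hg38 and Bowtie 0.12.2. How reads were counted, on which annotation and with or without strand was not given in the labels or headers, so reads of a gene and of an antisense partner cannot be told apart. The deposited values are FPKM, 1 column for the full library and 9 for shares of its reads, per the file headers. For 93.8% of 29280 detected genes, the FPKM that the authors deposited equalled whole reads, within a small tolerance, divided by 2 quantities. These were the summed length of all transcripts of the gene in GENCODE v29 and the library total. For the rest the smallest length that gave whole reads in all columns was taken. A simulation drew genes whose length equalled the summed length, and withheld that length where a gene had several transcripts. Recovered reads matched simulated reads in 100% of its 2416 genes with 60 or more reads. Genes whose length did not equal the summed length were not drawn.

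Symbols came from a table of gene names (57392 of 58174 IDs matched). Recovered reads were turned into RPM and divided by median-ratio size factors from genes averaging 20 reads or more. A gene entered the test with 60 or more reads summed over the libraries, and was tested on log2(scaled RPM + 1) by limma 3.58.1 with trend (R 4.3.3), two-sided, with Benjamini-Hochberg adjustment over all 11877 and a threshold of 0.05. Fold changes on that scale understate the change of low genes. Precision is limited by the 544442 to 2960454 reads per library. Trends over length and GC content of the longest transcript were removed with lowess (span 0.3). KRAB boxes and zinc fingers were found as patterns in GENCODE coding sequences translated for this purpose, where a RefSeq protein had been planned, and a gene without a match is not shown to lack the domain. Clusters, windows and lists were described by counts and medians with no test. The members and lists were chosen with earlier results of these data known. Named genes are those with an adjusted p below 0.05, the 5 with the highest level per kb, 11 with a known role, and, where fewer than 6 passed in a direction, up to 6 whose groups did not overlap. The recovery of reads and the main limma fit were checked on simulated data. The alternatives covered pseudocount, filter, scaling, test, unit, length and GC trends, pairing and leaving out libraries.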

Additional observations from a re-analysis of the deposited data

How the results depend on the processing

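The lower median of the zinc finger genes held its direction under all alternatives run, while the number of genes called did not. The median log2 fold change was -0.99 with library totals, -0.2 with the length and GC trends removed and -0.31 with the GC trend alone removed, an alternative chosen after seeing the data, and it ranged from -0.9 to -0.58 with single libraries left out. Against 6 genes called lower, 12 were with library totals (8.56% of all genes tested were lower), 1 with limma-voom (1.81%), 10 with limma-voom and quality weights (8.66%), 0 with scaled FPKM (0.134%), 1 with the length trend removed (2.49%), and 0 with the GC trend removed (3.95%), with both trends removed (3.28%) or without both libraries numbered 1 (2.26%). With single libraries left out, 0 to 11 were lower and 0 to 3 higher, and 0.0926% to 8.81% of all genes were lower. The ratio of the summed levels was 0.493 with library totals and 0.585 to 0.699 with single libraries left out. At least 200 reads left 5 clusters with a tested gene, all 5 with a median below 0, because fewer genes were tested. Library totals moved the median of all genes tested to -0.4, against -0.05, and the split of all calls to 436 higher and 1017 lower, against 868 and 566. JMJD1C was not called with scaled FPKM (log2 fold change -1.82), and ranged from -2.89 to -1.93 with single libraries left out. Other causes of these changes were not tested.

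The 27 cofactor genes had 1 higher and 2 lower, and the alternatives gave these counts, with those over all genes tested in brackets. There were 3 higher with a pseudocount of 5 (934 of 11877) and 3 with at least 200 reads (885 of 7785). Counts were 0 higher with no filter (638 of 29280) and with limma-voom (441 of 11877). Library totals gave 0 higher and 5 lower (436 and 1017 of 11877), and quantile normalization 0 higher and 4 lower (851 and 703). Quality weights in limma-voom gave 3 higher and 5 lower (1514 and 1029), and scaled FPKM 0 and 0 (11 and 24 of 17869). With the length trend removed 0 were higher and 1 lower (522 and 296 of 11877), and with both trends removed 1 was lower (389). With single libraries left out 0 to 3 cofactor genes were higher and 0 to 5 lower, against 61 to 1659 and 11 to 1046 of all 11877 genes.

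Library numbers were not shown to pair the samples: same-numbered deviations correlated at 0.072, 0.4 and 0.478, and sh-JMJD1C 1 correlated best with control 2. With the replicate number as a block, 15 zinc finger genes were called lower and 2 higher, cofactor genes gave 4 higher and 7 lower, and 1706 of all genes were higher and 1470 lower, against 868 and 566. With the replicate block and the length trend removed, 1 zinc finger gene was called higher and 7 lower, 8 cofactor genes were higher and 3 lower, and 1384 of all genes were higher and 990 lower. At these depths 142 of the 247 genes had too few reads for the test.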
